A study of Mus musculus with 21 samples.

Results

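The translation initiation and elongation factor genes were taken as every gene in the deposited data whose mouse symbol starts with Eif or Eef followed by a digit, pseudogenes left out. The rule found 61 genes of 9657. It matches 68 protein-coding genes in the GENCODE M21 annotation of the mouse genome, and the other 7 (Eef1a2, Eef1akmt2, Eef1akmt3, Eef2k, Eif2ak3, Eif4e1b and Eif5a2) were not analysed here. The libraries came from primary hepatocytes of wild-type mice, labelled day 1. They had received PBS, the vehicle control, or 1 of 3 RNA interference agents against Ttr, the gene of the hepatocyte-secreted carrier protein transthyretin. The agents, TTR-1236, TTR-1186 and Reference 4, were each used at 0.2 and at 2 µM. This gave 7 groups of 3 libraries, 21 in all. RNA was sequenced as QuantSeq 3′ tags, which give about 1 position per transcript, next to its poly(A) tail. Levels are in CPM, reads per 1000000 reads over the genes of a library, and are not divided by gene length. The labels do not say whether the replicates came from separate animals or cultures, so p-values measure the spread between these libraries only.

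Translation initiation brings the initiator tRNA, the small ribosomal subunit and the capped mRNA together. eIF2 carries the initiator tRNA and eIF2B recharges eIF2 with GTP. eIF3 holds the small subunit, eIF4F reads the cap and unwinds the leader, and eIF5B joins the large subunit. eEF1 then delivers each aminoacyl-tRNA and eEF2 moves the ribosome along. The liver spends much of this capacity on plasma proteins, and it adjusts translation through kinases that phosphorylate eIF2 and through the mTORC1 pathway that releases eIF4E from its binding proteins.

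Reads assigned to genes ran from 14158740 to 37410773 per library. Ttr stood at 2258 ± 84.7 CPM (SD, n = 3) with PBS, and its group means with the agents were 7.09 to 19.2 CPM. Of 12 hepatocyte markers 11 were measured, led by Serpina1a and Alb, and their sum without Ttr ran from 17485 to 26139.9 CPM. Markers of other liver cells were sparse. For Kupffer cells 2 of 7 were measured (Cd68 and Csf1r, summed 77.2 to 184 CPM). For bile duct cells 2 of 5 (Krt19 and Sox9) summed to 24.5 to 48.2 CPM, for stellate cells Acta2 alone of 7 reached 3.34 to 26.8 CPM, and for endothelium Stab2 alone of 6 stood at 0.179 to 10.6 CPM. None of 4 lymphocyte markers was measured. The share of reads from the mitochondrial ribosomal RNAs mt-Rnr1 and mt-Rnr2 differed between libraries and is given beside the results below. In PBS it was 3.26% and 2.70% in replicates 1 and 2 and 0.797% in replicate 3, which stood apart.

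Together the 61 genes gave 16699 ± 772 CPM (SD, n = 3) in PBS cells, and group means ran from 15587 to 16750.1 CPM over the 7 groups. The elongation factors held the highest single levels. Eef2, the translocase, was at 3571, 3606 and 3745 CPM in the PBS libraries and ranked 24 of 9657 genes. Eef1a1, which carries aminoacyl-tRNA to the ribosome, was at 2407, 2741.5 and 2055 CPM and ranked 47. The 5 eEF1 genes summed to 3639.7 ± 367 CPM, close to Eef2 alone. Counts at 3′ ends also depend on which ends are annotated, so an order of levels between genes is approximate.

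**Figure D1:**
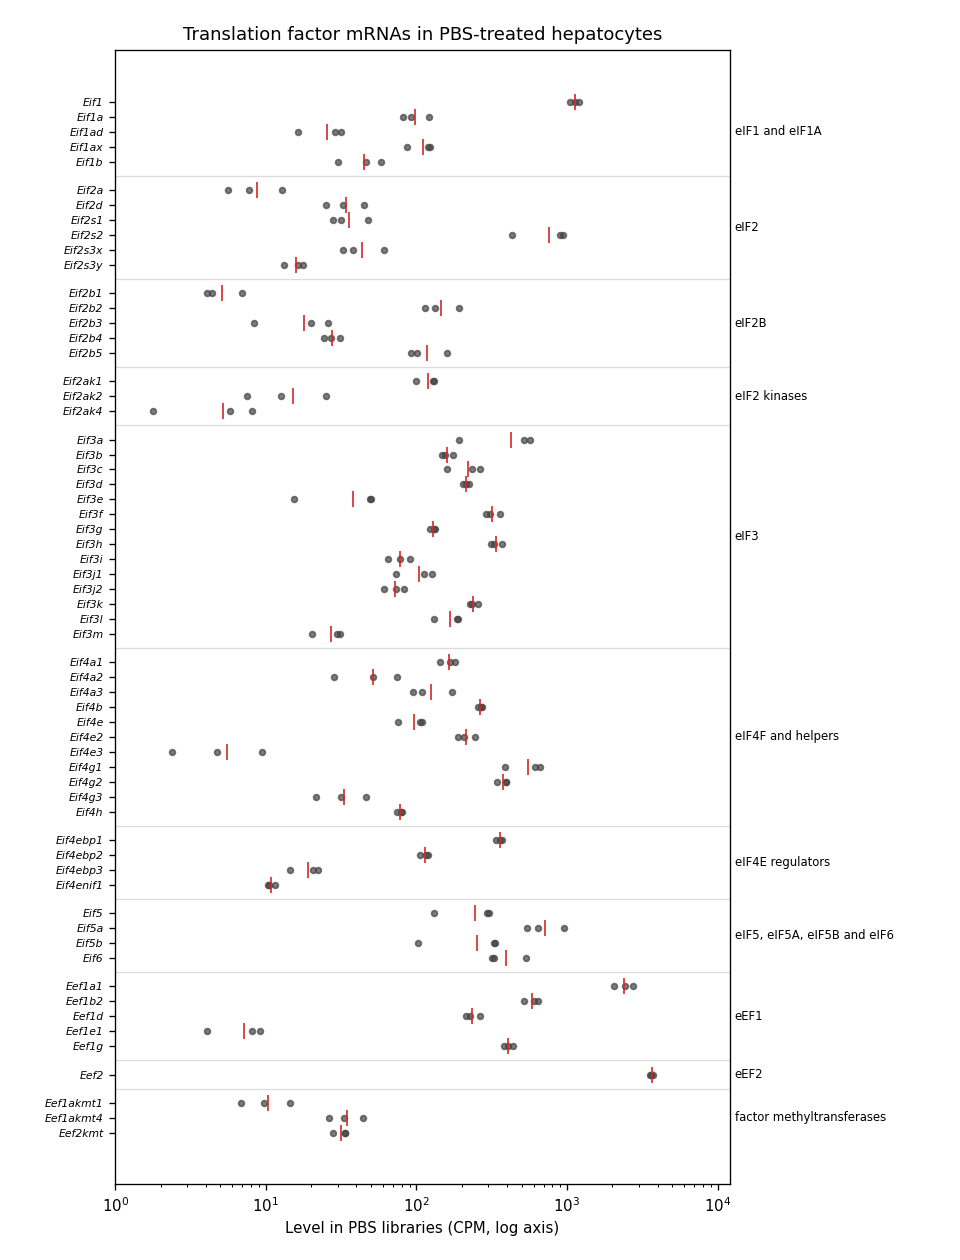
Level of each of the 61 genes in the 3 PBS libraries, in CPM on a log axis, grouped by factor complex from top to bottom. Points are libraries and the red tick is their mean. Eef2 (3640.5 CPM) and Eef1a1 (2401 CPM) are highest and Eif2b1 (5.14 CPM) and Eif2ak4 (5.21 CPM) are lowest.

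Among initiation factors Eif1, which keeps start codon choice accurate, was highest at 1122 ± 79.7 CPM and ranked 145. Its paralog Eif1b was at 44.8 ± 14.0 CPM. Of the pair that steadies scanning, Eif1a was at 97.6 ± 20.4 CPM and Eif1ax at 110.0 ± 20.3 CPM, which lay within their spread. Eif1ad, a nuclear relative, was the lowest of this group at 25.6 ± 8.16 CPM. The eIF2 subunits were unequal in tags. Eif2s2, the beta subunit, stood at 757 ± 285 CPM against 35.7 ± 10.4 CPM for the alpha subunit gene Eif2s1. The gamma subunit has an X-linked and a Y-linked copy, and Eif2s3x was at 43.8 ± 15.2 CPM and Eif2s3y at 15.8 ± 2.25 CPM. Eif2a, an alternative initiator tRNA carrier and no eIF2 subunit, was the lowest of the group at 8.69 ± 3.68 CPM. The 5 eIF2B genes summed to 314 ± 47.6 CPM, from Eif2b1 at 5.14 ± 1.54 CPM to Eif2b2 at 145.9 ± 41.0 CPM. Of the eIF2 kinases Eif2ak1, the heme-regulated kinase, was at 119.7 ± 18.01 CPM, above Eif2ak2 (PKR, the double-stranded RNA sensor) at 15.1 ± 9.10 CPM and Eif2ak4 (GCN2, the amino acid sensor) at 5.21 ± 3.18 CPM.

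The 14 eIF3 genes summed to 2533 ± 215 CPM in PBS cells. Eif3a, the largest subunit and scaffold of the complex, was the highest at 427 ± 204 CPM, and Eif3m was the lowest at 27.0 ± 5.80 CPM. The paralogs Eif3j1 and Eif3j2 were at 104 ± 28.1 and 72.1 ± 10.53 CPM. Eif3e, at 38.1 ± 19.8 CPM, shares sequence with the pseudogene Eif3s6-ps1, listed at 11.5 CPM, so its reads are uncertain. In eIF4F the scaffold Eif4g1 was at 554 ± 146 CPM, the cap-independent relative Eif4g2 at 377 ± 28.3 CPM and Eif4g3 at 33.2 ± 12.4 CPM. The helicase Eif4a1 was at 163.5 ± 18.9 CPM and its paralog Eif4a2 at 51.3 ± 23.3 CPM. The cap binder Eif4e was at 96.7 ± 19.0 CPM, below its repressive relative Eif4e2 at 214 ± 29.1 CPM, and Eif4e3 was at 5.53 ± 3.58 CPM. Of the proteins that sequester eIF4E, Eif4ebp1 was at 356 ± 15.5 CPM, Eif4ebp2 at 113.7 ± 6.67 CPM and Eif4ebp3 at 19.1 ± 4.03 CPM, with no overlap between the 3 in the PBS libraries. Eif4enif1, the eIF4E transporter, was lowest of that group at 10.8 ± 0.617 CPM. Eif5a, the factor that relieves stalled peptide bond formation, was at 709 ± 214 CPM, and Eif5, the GTPase activator of eIF2, at 243 ± 96.8 CPM. Eef1e1, a scaffold of the tRNA synthetase complex, was the lowest eEF1 gene at 7.13 ± 2.72 CPM. The methyltransferases ran from 10.3 ± 3.82 CPM (Eef1akmt1) to 34.6 ± 9.16 CPM (Eef1akmt4).

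Against PBS most of the 61 genes did not pass the test, and those that did were at 2 µM of TTR-1236 or Reference 4. Each gene was tested with limma on log2(CPM + 1), with adjustment over all 9657 genes by the Benjamini-Hochberg method and an adjusted p under 0.05 as the threshold. With TTR-1236 at 2 µM, 2 members rose and 3 fell, 8.20% of them, against 6.33% of all genes (1.44% higher and 4.89% lower). Higher were Eif1 and Eef1g. Lower were Eif3a, Eif4g1 and Eif5b. When limma was fitted to the libraries of these 2 groups alone, none of the 5 calls held, and 0.228% of all genes passed. With Reference 4 at 2 µM 1 member, Eif4g1, fell (1.64%), against 2.25% of all genes (1.66% lower), and that call too was lost with the 2 groups alone. Both shares of members were near the background. The 6 comparisons with PBS share its 3 libraries. The median log2 difference of the members was -0.01 and 0.00 in these comparisons, and that of all genes was -0.07 and -0.03.

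Eif3a (ENSMUSG00000024991, chr19:60761117-60790658 of GRCm38, minus strand) was at 566, 521 and 193 CPM in the PBS libraries and at 151, 128 and 104 CPM with TTR-1236 at 2 µM. The treated libraries were all below PBS, though PBS replicate 3 was much nearer to them than replicates 1 and 2 were. The treated mean was 29.9% of the PBS mean, a log2 difference of -1.60 ± 0.32 (SE), with a limma adjusted p of 0.0119. With Reference 4 at 2 µM Eif3a was at 169.9, 193 and 141 CPM, which overlapped PBS replicate 3 (log2 difference -1.20 ± 0.32, limma adjusted p = 0.0515). At 2 µM of TTR-1186 its values were 329, 225 and 375 CPM, inside the range of PBS (log2 difference -0.35 ± 0.32, limma adjusted p = 0.743).

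Eif4g1 (ENSMUSG00000045983, chr16:20668313-20692884, plus strand) was at 658.5, 616 and 388 CPM in PBS. It was at 300.3, 257 and 221 CPM with TTR-1236 at 2 µM and at 290.3, 295 and 243 CPM with Reference 4 at 2 µM. Both treated groups lay wholly below PBS, at 46.8% and 49.9% of its mean. The log2 differences were -1.07 ± 0.20 and -0.97 ± 0.20, with limma adjusted p of 0.00529 and 0.0147. At 2 µM of TTR-1186 its values were 423, 366 and 526 CPM, which overlapped PBS (log2 difference -0.32 ± 0.20, limma adjusted p = 0.620).

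Eif5b (ENSMUSG00000026083, chr1:37998010-38055579, plus strand) was at 331, 327 and 102 CPM in PBS and at 105, 93.9 and 71.9 CPM with TTR-1236 at 2 µM. The groups overlapped at PBS replicate 3, and the log2 difference was -1.31 ± 0.38 (limma adjusted p = 0.0465). Eif1 was at 1043, 1122 and 1202 CPM in PBS against 1294.5, 1571 and 1700.1 CPM, all higher than PBS (log2 difference 0.43 ± 0.12, limma adjusted p = 0.0361). Eef1g, the gamma subunit of the exchange factor that recharges eEF1A, was at 435, 382 and 408 CPM in PBS and at 554, 521 and 650.5 CPM with the agent, also without overlap (log2 difference 0.49 ± 0.12, limma adjusted p = 0.0236).

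These counts moved with single PBS libraries. Replicate 3, with a mitochondrial ribosomal RNA share of 0.797%, was the low one for Eif3a, Eif4g1 and Eif5b. Without PBS replicate 3, 12 members passed with TTR-1236 at 2 µM (5 higher, 7 lower) and 11 with Reference 4 at 2 µM (5 higher, 6 lower). In those fits the shares of all genes called were 16.4% and 13.2%. Without PBS replicate 1 none passed in either comparison, and without replicate 2 the numbers were 1 and 0. Of the treated libraries, leaving out TTR-1236 2 µM replicate 2 or 3 gave 3 or 1 members, and leaving out Reference 4 2 µM replicate 3 gave 0. Except without PBS replicate 3, the shares of all genes in these fits are not given. Their counts therefore do not set the members apart from all genes. Eif3a with TTR-1236 at 2 µM was at -2.10 without PBS replicate 3 (limma adjusted p = 3.29e-05) and at -1.32 without PBS replicate 1 (limma adjusted p = 0.0744). Eif4g1 in that comparison was at -1.30 (limma adjusted p = 2.07e-04) and -0.92 (limma adjusted p = 0.0503). With Reference 4 at 2 µM Eif4g1 was at -1.21 without PBS replicate 3, and at -0.83 and -0.87 without replicates 1 and 2, where the limma adjusted p were 0.111 and 0.0865.

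In the other 4 comparisons with PBS limma called 0 members, and edgeR's quasi-likelihood test and DESeq2 called 0 as well. At an unadjusted p under 0.05 limma counted 1 member with TTR-1236 at 0.2 µM, 5 with TTR-1186 at 0.2 µM, 14 with Reference 4 at 0.2 µM and 2 with TTR-1186 at 2 µM. These are 1.64%, 8.20%, 23.0% and 3.28% of the members, against 6.89%, 9.61%, 14.8% and 9.22% of all genes at the same threshold. The shares of all genes called after adjustment were 0.0207%, 0.0311%, 0.166% and 0.0518% (the last 0.0104% higher and 0.0414% lower). Without PBS replicate 3, 1 member passed with Reference 4 at 0.2 µM. The 2 smallest p in each comparison belonged to genes that did not pass the threshold with all libraries. With TTR-1236 at 0.2 µM these were Eif4enif1 (19.1 against 10.8 CPM, limma adjusted p = 0.669) and Eef1akmt1, a lysine methyltransferase of eEF1A (16.5 against 10.3 CPM, limma adjusted p = 0.755). With TTR-1186 at 0.2 µM they were Eif4ebp1 (267 against 356 CPM, limma adjusted p = 0.267) and Eif4h, a helicase cofactor (51.0 against 77.6 CPM, limma adjusted p = 0.349). With Reference 4 at 0.2 µM they were Eif4ebp2 (74.2 against 113.7 CPM, limma adjusted p = 0.0972) and Eif2s1 (20.5 against 35.7 CPM, limma adjusted p = 0.166). With TTR-1186 at 2 µM they were Eef1akmt4 (52.0 against 34.6 CPM, limma adjusted p = 0.290) and Eif5a (878 against 709 CPM, limma adjusted p = 0.536).

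The 3 agents were compared with each other at each dose, 6 comparisons in all, and limma called 0 members in each. The shares of all genes called were 0.00% in the 3 comparisons at 0.2 µM and, at 2 µM, 0.00% for TTR-1236 against Reference 4, 0.373% for TTR-1186 against Reference 4 (0.228% higher) and 0.342% for TTR-1236 against TTR-1186 (0.0932% higher). At an unadjusted p under 0.05 and at 0.2 µM limma counted 14 members for TTR-1236 against Reference 4, 3 for TTR-1186 against Reference 4 and 9 for TTR-1236 against TTR-1186. The numbers at 2 µM were 0, 14 and 16 in that order. As shares of the members these are 23.0%, 4.92% and 14.8% at 0.2 µM, against 14.0%, 4.92% and 7.09% of all genes at the same threshold. At 2 µM they are 0.00%, 23.0% and 26.2%, against 2.98%, 12.4% and 15.8% of all genes. edgeR called 0 in all 6, and DESeq2 called 2 for TTR-1236 against Reference 4 at 0.2 µM, 3 at 2 µM for TTR-1236 against TTR-1186 and 0 in the other 4. For the pair TTR-1236 and TTR-1186 at 2 µM, leaving out TTR-1186 replicate 2 gave 2 members, and leaving out TTR-1236 replicate 1 gave 1. The intervals were wide. For Eif3a at 2 µM TTR-1236 minus TTR-1186 was -1.25 on the log2 scale (95% interval -1.93 to -0.59, limma adjusted p = 0.0841) with no overlap between the libraries. TTR-1236 minus Reference 4 was -0.40 (95% interval -1.07 to 0.27), and TTR-1186 minus Reference 4 was 0.86 (95% interval 0.19 to 1.53, limma adjusted p = 0.281). For Eif4g1 the 3 differences were -0.75 (95% interval -1.16 to -0.35, limma adjusted p = 0.0794), -0.10 (-0.50 to 0.31) and 0.65 (0.25 to 1.06, limma adjusted p = 0.174) in the same order. The limma adjusted p of TTR-1236 against Reference 4 was 0.9999 for both genes.

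Between the doses more members passed the test than against PBS, and so did more of all genes. The mean of the 3 groups at 2 µM was set against the mean of the 3 groups at 0.2 µM, a comparison that does not use the PBS libraries. It sets 9 libraries against 9, which gives smaller SE than 3 against 3. In it 9 members rose and 5 fell, 23.0% of the 61, against 18.9% of all genes (8.80% higher and 10.1% lower). The share of members was near that of all genes. Higher at 2 µM were Eif1, Eif3i, Eif3m, Eif4a1, Eif4h, Eif4ebp1, Eif5a, Eef1b2 and Eef1e1. Lower were Eif3a, Eif4g1, Eif5b, Eif3c and Eif2s2. The median log2 difference was 0.00 over members and -0.01 over all genes. None of the 14 separated the 9 libraries at 2 µM fully from the 9 at 0.2 µM. The share of all genes that did so was not counted. Leaving out single libraries gave 10 to 16 called members.

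**Figure D2:**
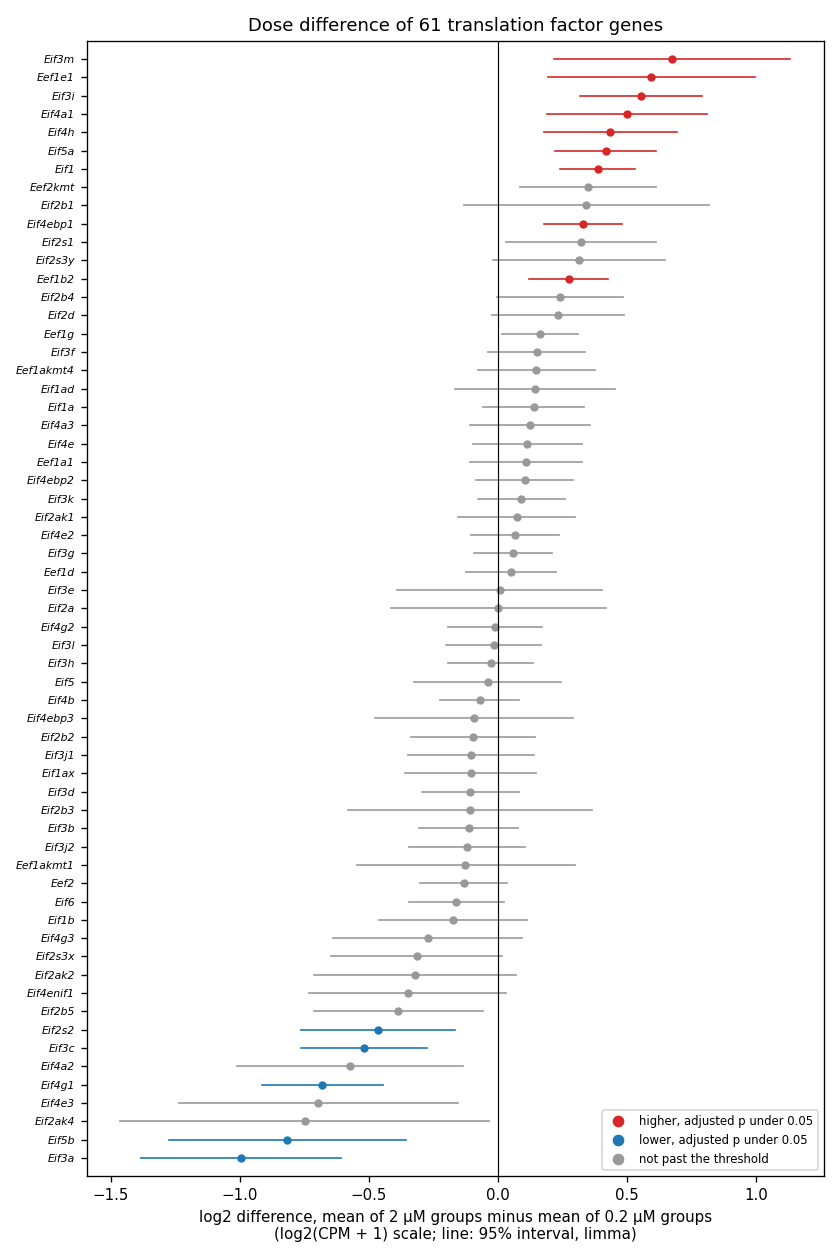
log2 difference between the mean of the 2 µM groups and the mean of the 0.2 µM groups for each of the 61 genes, on the log2(CPM + 1) scale with 95% intervals from limma, ordered by value. Red points (9 genes) are higher and blue points (5 genes) lower at an adjusted p under 0.05; the values run from -0.997 (Eif3a) to 0.67 (Eif3m).

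Of the members that fell, Eif3a had the largest difference. It ran from 104 to 375 CPM at 2 µM (median 169.9) and from 261 to 576 CPM at 0.2 µM (median 361), a log2 difference of -0.997 ± 0.185 (SE, limma adjusted p = 0.00184). The libraries at 2 µM that overlapped those at 0.2 µM were TTR-1186 replicates 1 and 3. Eif4g1 ran from 221 to 526 CPM (median 295) against 391 to 672 CPM (median 497.5), a difference of -0.68 ± 0.11 (limma adjusted p = 6.21e-04). Eif5b, the subunit-joining GTPase, ran from 71.9 to 227 CPM (median 109) against 131 to 344 CPM (median 201), a difference of -0.82 ± 0.22 (limma adjusted p = 0.0150). Eif3c, another core subunit of eIF3 (ENSMUSG00000030738, chr7:126546455-126566411, minus strand), ran from 120.1 to 262.5 CPM against 194 to 339 CPM, a difference of -0.52 ± 0.12. Eif2s2 (ENSMUSG00000074656, chr2:154871410-154892935, minus strand) ran from 314 to 829.9 CPM against 491.5 to 939 CPM, a difference of -0.47 ± 0.14. The limma adjusted p were 0.00470 and 0.0278, and the Eif2s2 call was lost in 8 of 18 fits that each left out 1 library. With TTR-1186 the Eif2s2 means were close, at 744.0 CPM at 0.2 µM and 728.3 CPM at 2 µM. In the same order they were 572.7 and 432.3 CPM with TTR-1236 and 879.7 and 464.0 CPM with Reference 4.

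**Figure D3:**
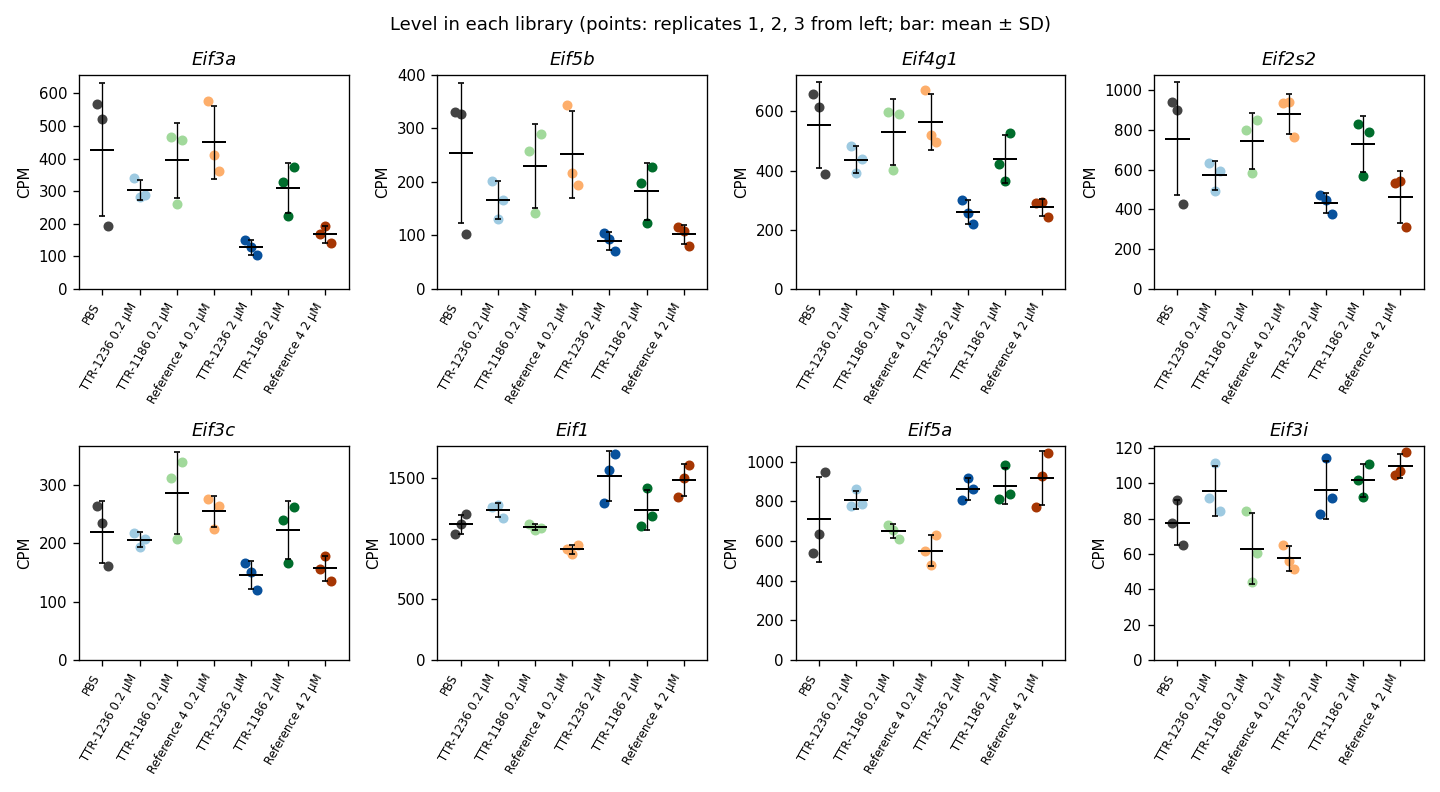
CPM in each library for 8 of the genes (panels), by group on the x axis. Points are replicates 1, 2 and 3 from left to right, and the bar and whisker are the mean and SD. Eif3a, Eif5b, Eif4g1, Eif2s2 and Eif3c are low in the TTR-1236 and Reference 4 groups at 2 µM and in PBS replicate 3; Eif1 is highest in those 2 µM groups.

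Among single agents, the doses of Reference 4 gave calls. At 2 against 0.2 µM of that agent 9 members rose and 5 fell, again 23.0%, against 12.8% of all genes (6.78% higher, 6.05% lower). These libraries are also part of the comparison over all agents. Their depth was 14158740 to 14971332 reads at 0.2 µM and 18802476 to 32927430 reads at 2 µM. The part of depth in these calls was not tested. Eif1 was at 915, 872 and 952 CPM at 0.2 µM and at 1343, 1502.5 and 1608 CPM at 2 µM (log2 difference 0.70 ± 0.12, limma adjusted p = 0.00224). Eif3a was at 576, 412 and 361 CPM against 169.9, 193 and 141 CPM (-1.40 ± 0.32, limma adjusted p = 0.00965), and Eif4g1 at 672, 519.7 and 497.5 CPM against 290.3, 295 and 243 CPM (-1.02 ± 0.20, limma adjusted p = 0.00324). Each of the 14 was without overlap between its 3 and 3 libraries, as were 96.5% of all genes called in this comparison and 33.9% of all genes.

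Eif5b (-1.27 ± 0.38), Eif2s2 (-0.96 ± 0.25) and Eif3c (-0.70 ± 0.21) also fell with Reference 4. Eif3i (0.93 ± 0.20), Eif4h (0.79 ± 0.21), Eif5a (0.73 ± 0.16), Eef1e1 (1.16 ± 0.34) and Eif4ebp1 (0.38 ± 0.13) rose, as they did in the mean over all agents. The other 3 that rose were Eif2s1, at 22.0, 18.4 and 21.04 CPM against 35.0, 45.8 and 35.5 CPM, Eif1a (75.5 against 110.6 CPM in the means) and Eef2kmt, the methyltransferase of eEF2 (27.1 against 45.0 CPM). Leaving out Reference 4 2 µM replicate 3 left 3 of the 14 calls in number, and leaving out replicate 2 of either dose left 8. Eif4ebp1 had a limma adjusted p of 0.0499 and lost its call in each of the 6 fits that left out 1 library and in 8 of 10 other settings, edgeR and DESeq2 among them.

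With TTR-1236 and with TTR-1186 limma called 0 members between the doses, against 0.135% and 0.00% of all genes. At an unadjusted p under 0.05 the counts were 11 and 9 of 61, and 11.5% and 14.7% of all genes passed that threshold. edgeR called 0 in both. DESeq2 called 2 with TTR-1236 (3.28% of members and 1.22% of all genes) and 0 with TTR-1186 (0.735% of all genes). Eif3a was at 339.9, 284 and 289 CPM at 0.2 µM of TTR-1236 against 151, 128 and 104 CPM at 2 µM, without overlap (-1.26 ± 0.32, limma adjusted p = 0.116). With TTR-1186 it was at 467, 261 and 456 CPM against 329, 225 and 375 CPM, which overlapped (-0.33 ± 0.32, limma adjusted p = 0.666).

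Whether the dose difference itself differed between agents was tested as 3 interaction terms, and limma called 0 members and 0 of all genes in each. At an unadjusted p under 0.05 it counted 12 members for TTR-1236 minus Reference 4, 7 for TTR-1186 minus Reference 4 and 7 for TTR-1236 minus TTR-1186. These are 19.7%, 11.5% and 11.5% of the members, against 9.46%, 9.05% and 6.81% of all genes. No other tool was run on these terms. The smallest adjusted p was that of Eif3i, for TTR-1236 minus Reference 4, at -0.92 ± 0.28 on the log2 scale (limma adjusted p = 0.232).

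Among the members that rose with dose, Eif1 ran from 1106 to 1700.1 CPM at 2 µM (median 1424) and from 872 to 1277 CPM at 0.2 µM (median 1094), a log2 difference of 0.39 ± 0.07 (limma adjusted p = 0.00116). Eif3i, a small eIF3 subunit, ran from 82.8 to 117.7 CPM against 44.3 to 111.4 CPM (0.55 ± 0.11, limma adjusted p = 0.00261). Eif5a ran from 774 to 1046.5 CPM against 477 to 861 CPM (0.42 ± 0.09, limma adjusted p = 0.00456). In each of these the highest library at 0.2 µM belonged to TTR-1236, and its values lay inside the range at 2 µM.

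Eif4ebp1 ran from 321 to 441 CPM at 2 µM against 241 to 351 CPM at 0.2 µM (0.33 ± 0.07, limma adjusted p = 0.00437). Eef1b2, the exchange factor subunit that recharges eEF1A, ran from 528 to 715 CPM against 435 to 581 CPM (0.27 ± 0.08, limma adjusted p = 0.0134). Eif4h ran from 49.1 to 111.3 CPM against 43.5 to 90.0 CPM (0.44 ± 0.12, limma adjusted p = 0.0172). Eif4a1 was at 172 against 126 CPM in the means (0.50 ± 0.15), Eif3m at 32.0 against 20.1 CPM (0.67 ± 0.22) and Eef1e1 at 9.46 against 6.07 CPM (0.59 ± 0.19). These rises are of the mean over all agents, and not each agent had them. With TTR-1236 alone, Eif4h averaged 82.55 CPM at 0.2 µM and 79.95 CPM at 2 µM. Eif4a1 averaged 170.1 and 166.1 CPM, and Eif3i 95.72 and 96.31 CPM, in that order. The means of these genes were higher at 2 µM with TTR-1186 and with Reference 4. The calls of Eif4a1, Eif3m and Eef1e1 were lost in 5, 10 and 10 of the 18 fits that left out 1 library, while those of Eif1, Eif3i, Eif5a, Eif4ebp1, Eef1b2 and Eif4h, and of Eif3a, Eif4g1, Eif5b and Eif3c among those that fell, were lost in none.

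By complex, calls in both directions fell within eIF3 (2 higher, 2 lower of 14), the eIF4F group (2 higher, 1 lower of 11) and the eIF5, eIF5A, eIF5B and eIF6 group (1 higher, 1 lower of 4). In the eEF1 group 2 of 5 rose, Eef1b2 and Eef1e1, and all 5 estimates were above 0, from 0.05 to 0.59. The highest, 0.59, was that of Eef1e1, the scaffold of the tRNA synthetase complex. Its call was lost in 10 of 18 fits that left out 1 library. eIF1 had 1 of 5 higher, the eIF4E regulators 1 of 4 higher, and eIF2 1 of 6 lower. No member of eIF2B, the eIF2 kinases, eEF2 or the methyltransferases passed the test over all agents. Of all genes 18.9% were called in this comparison (8.80% higher and 10.1% lower). With so few genes in each complex, these counts do not set the complexes apart from that share. Eef2 ran from 2739.8 to 4223 CPM at 2 µM and from 2967 to 4329 CPM at 0.2 µM, a log2 difference of -0.13 ± 0.08. Eef1a1 was at 0.11 ± 0.10. Within related genes the estimates were unequal. Eif4a1 rose and Eif4a2 was at -0.57 ± 0.21 (limma adjusted p = 0.0606), and Eif4g1 fell and Eif4g2 was at -0.01 ± 0.09 and Eif4g3 at -0.27 ± 0.18. The kinase genes Eif2ak1, Eif2ak2 and Eif2ak4 were at 0.07 ± 0.11, -0.32 ± 0.19 and -0.75 ± 0.35.

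The members that fell mostly had longer coding sequences than those that rose. Coding length ran from 993 to 4800 bases in the 5 that fell (median 3648) and from 339 to 1218 bases in the 9 that rose (median 675), and the median of all 61 was 1122. Eif2s2, at 993 bases, was the exception among those that fell, since Eif3m (1122) and Eif4a1 (1218), which rose, are longer. Over all genes called in this comparison the medians were 2586 bases for 764 protein-coding genes lower and 783 bases for 623 higher, and that of all 8542 protein-coding genes was 1326, so the members followed the same order as the other genes. Across the 61 genes Spearman's rho between coding length and the log2 difference was -0.43, and across the 8542 it was -0.37. For the length of the 3′ untranslated region it was 0.01 and -0.16. That length was read from the annotated transcript with the longest coding sequence, and was only 3 bases for Eif4a2 and Eif4g3. Which 3′ ends these cells used was not examined, so the 2 values for this region are uncertain. All these values of rho are descriptions across genes of the same libraries, and genes are not independent replicates.

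**Figure D4:**
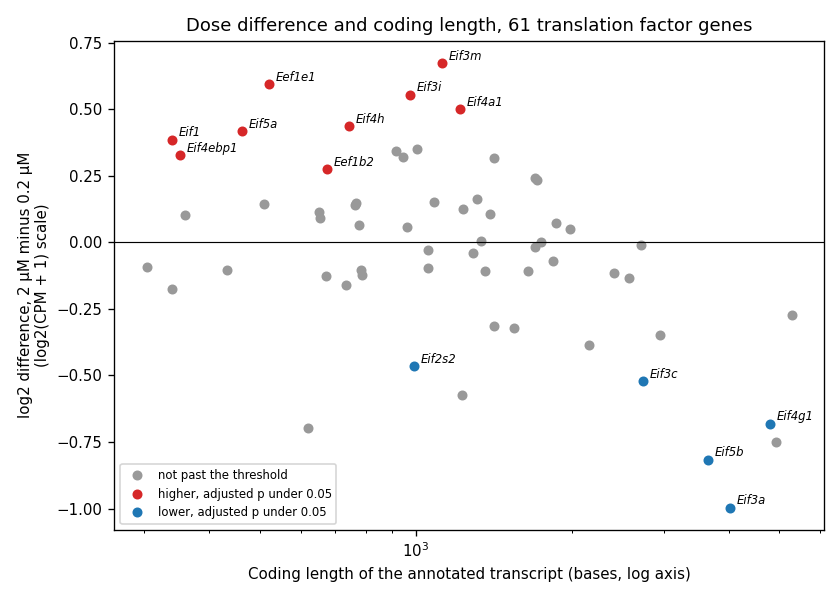
log2 difference between 2 and 0.2 µM over all agents (y axis, log2(CPM + 1) scale) against the coding length of the annotated transcript in bases (x axis, log scale) for the 61 genes. Red genes rose and blue genes fell at an adjusted p under 0.05; Of the genes that fell, Eif3c (2733 bases), Eif5b (3648), Eif3a (4032) and Eif4g1 (4800) are the longest and Eif2s2 is 993 bases.

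The 2 sets also differed in the most A-rich 20-base stretch of their coding sequences, and these stretches are printed here. For each gene the 20-base stretch of the coding sequence with most A was taken from the GENCODE M21 transcript, with positions in GRCm38. Capitals mark A, and the letters read 5′ to 3′ on the coding strand. Of the genes that fell these stretches held 13 to 17 A, at chr1:38022201-38022220, chr2:154884358-154884377, chr16:20681816-20681835, chr7:126563713-126563732 and chr19:60772975-60772994 in the order shown.
Eif5b: AAAAAgAAAAAgAAAgAAAA
Eif2s2: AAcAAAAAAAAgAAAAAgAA
Eif4g1: AAgAcAtAAAActAAAtAAA
Eif3c: AAAgAAgAAgAtgAAtAAAA
Eif3a: AAAAAttcAAgAAAAgAgcA
In the genes that rose they held 9 to 13 A, so the sets meet at 13, the number in both Eif4h and Eif3a. Of the 9, 5 that span this range are shown, at chr5:134625406-134625425, chr11:100320731-100320750, chr13:38646282-38646301, chr11:69917975-69917994 and chr4:129600449-129600468 in the order shown.
Eif4h: AAggcAgAAAAcAAgAtAAA
Eif1: AtAAgAAttcAAcAgAgAAA
Eef1e1: AcAgttcAAgAAAAggAgAA
Eif5a: ActgggAAgAAAtAtgAAgA
Eif3i: AtcAcgcAgAtcAAgtAtAA

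The median number of A was 14 in the 5 genes that fell, 11 in the 9 that rose and 12 over all 61. The 47 members not called had 9 to 16 A (median 12), which overlaps both sets. Eif5, with 16 A, had a log2 difference of -0.04. Over all genes it was 14 in those lower, 11 in those higher and 12 in all. Spearman's rho with the log2 difference was -0.35 across members and -0.38 across all protein-coding genes. The number of A rises with the length searched, and the deposited data give 1 count per gene, so where along a transcript its reads lay is not known here.

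The genes that fell moved with the share of mitochondrial ribosomal RNA in a library. That share was 0.487%, 0.471% and 0.278% with TTR-1236 at 2 µM, 1.10%, 0.819% and 0.383% with Reference 4 at 2 µM, and 1.95%, 0.622% and 2.21% with TTR-1186 at 2 µM. At 0.2 µM it was 1.47% to 1.73% with TTR-1236, 1.49% to 3.73% with TTR-1186 and 2.13% to 3.498% with Reference 4. Groups low in Eif3a and Eif4g1 were thus also low in this share. The same order held among replicates, which had the same treatment: in each of the 7 groups the library with the lowest share also had the lowest Eif3a, Eif5b, Eif4g1, Eif2s2 and Eif5. These are 5 of the 61 members (8.20%), against 111 of all 9657 genes. Eif3c and Eif4a2 did so in 6 of 7 groups. In at least 6 groups, 11.5% of members and 4.91% of all genes were lowest in that library. In the other direction Eif1, Eif4a3, the helicase of the exon junction complex, and Eif4ebp1 were highest in that library in 6 of 7 groups, with 4.92% of members and 1.67% of all genes doing so in at least 6. Summed cell type markers also stood at other levels at the 2 doses, not in one direction for the 3 agents. With Reference 4 the stellate marker Acta2 was at 13.4 to 26.8 CPM at 0.2 µM and 5.22 to 13.1 CPM at 2 µM. The bile duct markers summed to 24.5 to 43.2 and 44.5 to 48.2 CPM, and the hepatocyte markers to 18895 to 21403.5 and 23631 to 26139.9 CPM. The Kupffer cell markers summed to 85.1 to 184 and 127.7 to 157 CPM. With TTR-1236 Acta2 was at 11.1 to 17.1 and 7.01 to 13.4 CPM, the bile duct markers at 28.0 to 37.6 and 42.8 to 47.2 CPM without overlap, and the hepatocyte markers at 21044.5 to 23013.6 and 21027 to 23680.5 CPM. With TTR-1186 Acta2 was at 15.5 to 26.4 and 16.5 to 24.3 CPM, the bile duct markers at 31.9 to 43.2 and 31.6 to 42.3 CPM, and the hepatocyte markers at 20966 to 23145 and, lower and without overlap, 17485 to 20440.1 CPM. The Kupffer cell markers were at 102 to 133 and 102 to 157 CPM with TTR-1236 and at 86.7 to 88.4 and 77.2 to 119.9 CPM with TTR-1186. The part of these markers and of the mitochondrial share in the dose differences was not tested. In bulk libraries fewer cells of a kind and less RNA per cell cannot be told apart either.

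**Figure D5:**
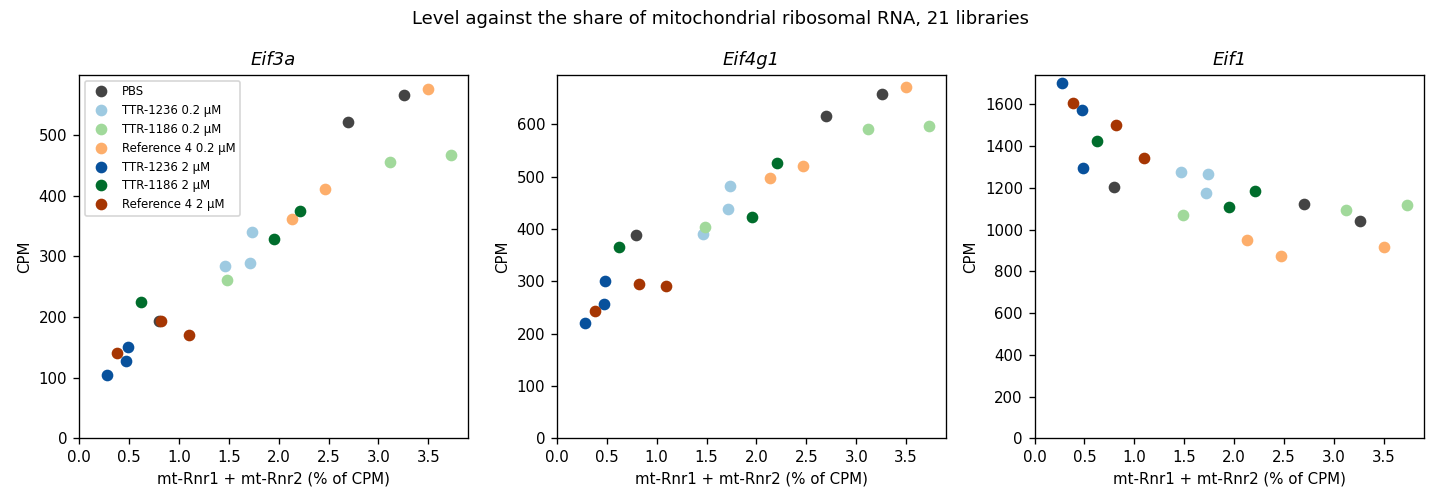
CPM of Eif3a, Eif4g1 and Eif1 (panels, y axes) against the share of CPM from mt-Rnr1 and mt-Rnr2 in percent (x axis) in the 21 libraries, coloured by group. PBS replicate 3, at 0.797%, had 193 CPM of Eif3a and lies with the libraries of Reference 4 at 2 µM, while PBS replicates 1 and 2, at 3.26% and 2.70%, had 566 and 521 CPM.

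Other genes of the translation machinery were counted in the comparison of doses over all agents, beside the 18.9% of all genes called. Of 83 cytosolic ribosomal protein genes 38 rose and 0 fell, with a median log2 difference of 0.20. A short list from the literature of genes known for mRNAs that start with the TOP motif, which couples translation to mTORC1, was also counted. It did not include the ribosomal protein genes, which were counted above, and held 9 translation factors and 5 other genes. Eef1b2 alone of the 9 rose. Of the 5, Tpt1 rose (3299 against 2605 CPM, 0.35 ± 0.06) and Pabpc1, the main cytoplasmic poly(A)-binding protein, fell (516 against 846 CPM, -0.82 ± 0.18). Pabpc1 was also the 1 gene of 6 called among poly(A)-binding proteins and their partners.

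Of 10 termination and recycling genes 2 fell: Gspt1, the release factor GTPase (-0.67 ± 0.21), and Nemf, a quality control factor (-0.63 ± 0.19). Of 21 cytosolic tRNA synthetase genes 1 rose, Kars (0.26 ± 0.09), and 4 fell: Eprs, Sars, Farsa and Lars, from -0.76 to -0.41. Of 15 mTORC1 and cap signalling genes Mknk1, an eIF4E kinase, and Ddit4, an mTORC1 inhibitor, rose (0.62 ± 0.20 and 0.40 ± 0.13), and Rps6kb1, the S6 kinase, fell (-0.69 ± 0.17). Of 13 genes of the response to eIF2 phosphorylation 0 rose and 2 fell, Atf5 (695 against 880.1 CPM, -0.39 ± 0.12) and Impact (-0.88 ± 0.26). Of 7 mitochondrial translation factors 1 fell, Mtif2, the mitochondrial initiation factor (-0.90 ± 0.30). The medians of these lists other than the ribosomal proteins lay between -0.13 and 0.18.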

How the data were processed

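Libraries were made with a QuantSeq 3′ mRNA kit from total RNA, per the labels' protocols. Reads were processed with cutadapt 1.15, HISAT2 2.1.0 and featureCounts on mm10, per the submitters' processing notes; neither the gene annotation nor the strand setting was recorded in these sources. The authors deposited CPM per gene and library, each library summing to 1000000, for 9657 genes, whose lowest mean was 1.22 CPM. Depth was 14158740 to 37410773 reads per library. Symbols of 9651 genes came from GENCODE M21 by Ensembl ID. What 1 read is worth was inferred in each library from the smallest gap between its low values. On that unit 100% of values in all 21 libraries came out whole, within 0.001 reads; depths and the counts used for edgeR and DESeq2 rest on this inference.

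The test was limma 3.58.1 (R 4.3.3; trend and robust) on log2(CPM + 1), which understates the change of low genes, with 7 group means fitted to all 21 libraries and Benjamini-Hochberg adjustment over 9657 genes. It was tested on simulated data with known changes. The simulation gave all genes the same spread setting and no shifts shared by the genes of a library. It therefore does not speak to such shifts in the real libraries. Groups came from the treatment labels; 16 comparisons were made, and 3 dose-by-agent interactions were added after the data were seen. Alternatives were edgeR 4.0.16 and DESeq2 1.42.0, other scalings, pseudocounts and filters, the compared libraries only, a replicate block and single libraries left out; rescaling by size factors was added after the data were seen. Coding features came from the longest coding transcript. The members and gene lists were chosen with earlier results of these data known. Named are members called in any comparison, the highest and lowest of each complex in PBS, the 2 smallest p in each comparison with PBS, and paralogs. Same-numbered libraries did not deviate together (correlations from -0.392 to 0.289), so replicate numbers were not used as pairs.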

Additional observations from a re-analysis of the deposited data

How the results depend on the processing

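No called value of a named gene changed direction under any alternative run. Of the counts of members called, those that differed by more than 1.5 times from the reported number were as follows. With TTR-1236 at 2 µM against PBS (5 reported) the compared libraries alone gave 0 (0.228% of all genes), and leaving out single libraries 0 to 12. With Reference 4 at 2 µM against PBS (1 reported) DESeq2 gave 6 (7.54% of all genes). In that comparison edgeR with TMM or size factors gave 3 (3.0% and 3.17% of all genes). TMM-rescaled CPM, size-factor-rescaled CPM (added after the data were seen) and a minimum mean of 10 CPM each gave 2. The compared libraries alone gave 0 (0.414% of all genes), and leaving out single libraries 0 to 11. With Reference 4 at 0.2 µM against PBS (0 reported) leaving out single libraries gave 0 to 1. For TTR-1236 against Reference 4 at 0.2 µM (0 reported) DESeq2 gave 2 (2.46% of all genes) and the compared libraries alone 6 (5.17%). At 2 µM, for TTR-1236 against TTR-1186 (0 reported), DESeq2 gave 3 (3.17% of all genes). The compared libraries alone gave 1 there (0.197%), and leaving out single libraries 0 to 2. For TTR-1236 at 2 against 0.2 µM (0 reported) DESeq2 gave 2 (1.22% of all genes) and the compared libraries alone 3 (1.97%). For Reference 4 at 2 against 0.2 µM (14 reported) leaving out single libraries gave 3 to 13. Most counts with single libraries left out stand without the share of all genes, so they do not set the members apart. The cause of these shifts was not tested. With a replicate block 2 members were called with Reference 4 at 2 µM against PBS (Eif3a then at an adjusted p of 0.0308 by limma); the gene passed there in 8 alternatives in all, and the block changed no other count by more than 1.5 times. Replicate numbers did not pair the libraries: 18 of 63 same-number correlations were over 0.1, and 7 of 21 libraries were closest to their own number. How far depth limits single genes was not tested: the SE of the dose difference was 0.35 for Eif2ak4, at 5.21 CPM in PBS, and 0.08 for Eef2, at 3640.5 CPM, but also 0.22 for Eif5b, at 254 CPM.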
